A study of Mus musculus with 12 samples.

Results

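E2F transcription factors and the retinoblastoma family of pocket proteins were examined in retinal ribosome-bound RNA. The family comprised 10 genes taken by symbol, E2f1, E2f2, E2f3, E2f4, E2f5, E2f7, E2f8, Rb1, Rbl1 and Rbl2. All 10 were present among 53090 gene rows, each in a single row, and all 10 passed the filter on low counts that left 18638 genes for testing. The P9 group held 6 libraries of retinas taken at postnatal day 9 and the P3 group 6 libraries taken at day 3. Mice of both groups were C57BL/6, received tamoxifen by injection on days 1 and 2, and gave RNA that came down with HA-tagged ribosomes, which the labels assign to retinal pericytes, the mural cells of capillaries. What drives expression of the tag was not stated in the labels used here. No label ties a library to separate animals either. The p-values therefore set the age difference against the scatter of these libraries, some of which can be technical. The interval from tamoxifen to harvest was longer at P9 and cannot be told apart from age. Expected counts summed to between 26839599 and 37776172 per library, and a level of 1 CPM (counts-per-million, scaled by TMM factors) rested on 25.8 to 38.6 counts.

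E2F factors bind the promoters of genes for DNA synthesis and division, as dimers with a DP partner in the classical members. The pocket proteins pRB (Rb1), p107 (Rbl1) and p130 (Rbl2) hold them in check until cyclin-dependent kinases phosphorylate the pocket proteins at the end of G1. E2f1, E2f2 and E2f3 are classed as activators, E2f4 and E2f5 as repressors that work with p107 and p130, and E2f7 and E2f8 as atypical repressors that bind DNA without a DP partner or a pocket protein. In the retina this circuit is known for the tumour that gave pRB its name, and for the exit of progenitors from the cell cycle.

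The family split by member at P9. E2f1, E2f2, E2f7, E2f8 and Rbl1 fell by 3.32-fold to 12.3-fold and E2f5 by 1.43-fold, E2f3 rose 2.03-fold and Rbl2 1.22-fold, and E2f4 and Rb1 did not pass the test. Thus 6 of 10 members fell and 2 rose at an adjusted p under 0.05 in edgeR's quasi-likelihood test, which called 51.8% of all genes tested, 25.6% lower at P9 and 26.1% higher. A fall of at least 2-fold was called for 5 members and for 8.01% of all genes. The CPM ranges of the ages did not overlap for 7 of 10 members, 5 of them lower at P9 and 2 higher, against 31.7% of all genes, 15.4% lower and 16.3% higher. The median log2 fold change, P9 over P3, was -1.12 over the 10 members and -0.0017 over all genes. Fewer cells of a type and less RNA per cell cannot be told apart in such bulk samples.

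**Figure D1:**
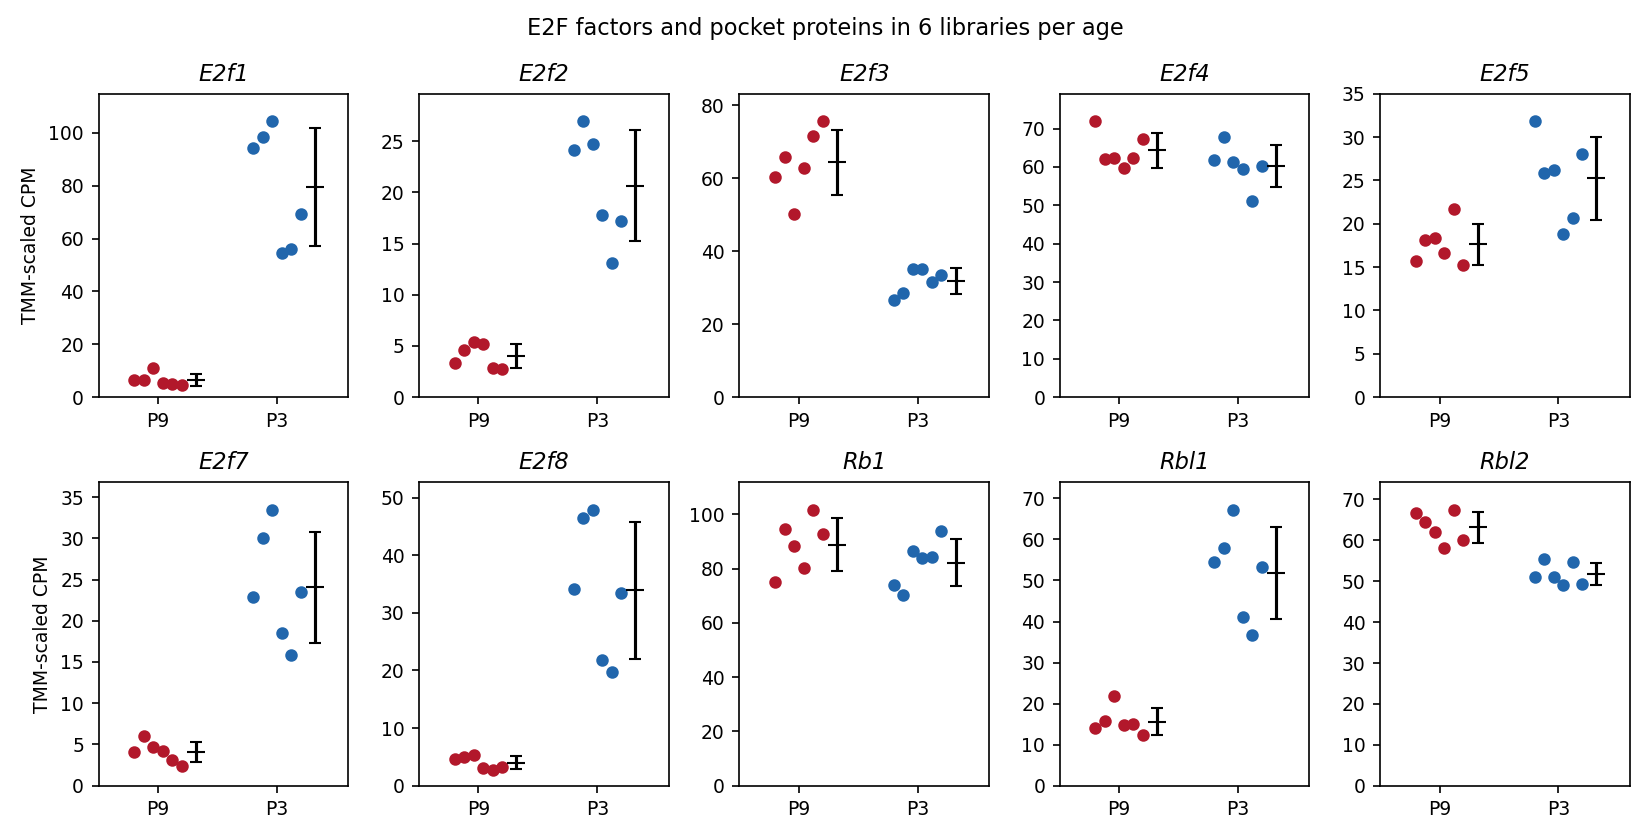
TMM-scaled CPM (vertical axes, starting at 0, each with its own scale) of the 10 genes in the 6 P9 libraries (red, left) and the 6 P3 libraries (blue, right); each point is a library, and the black mark with bars is the mean with its SD. E2f1, E2f2, E2f7, E2f8 and Rbl1 lie lower in every P9 library than in any P3 library, E2f3 and Rbl2 lie higher, and E2f4, E2f5 and Rb1 overlap.

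Markers of other cells moved between the same libraries. For comparison, 25.6% of all genes tested were called lower at P9 and 26.1% higher. The 11 retinal progenitor markers reported here fell at P9, and their summed level was 572 to 738 CPM in P9 libraries, against 1804 to 2802 CPM in P3 libraries. All 12 rod photoreceptor markers rose, with sums of 8160 to 16885 CPM at P9 and 1483 to 3079 CPM at P3. All 11 lens markers fell, with sums of 84.2 to 1078 CPM at P9 and 4505 to 11437 CPM at P3. The 10 pericyte markers were present and all rose, with sums of 2778 to 6291 CPM at P9 and 309 to 1285 CPM at P3. Pdgfrb, the receptor that defines pericytes, averaged 697 CPM at P9 and 116 CPM at P3. Of 8 bipolar cell markers 7 rose and 1 fell, with sums of 1814 to 2541 CPM at P9 and 1089 to 1278 CPM at P3. All 5 erythroid markers that were tested, of 7 listed, rose, with sums of 160.2 to 1583 CPM at P9 and 18.7 to 87.7 CPM at P3. Of 10 endothelial markers 6 rose, 1 fell and 3 did not pass, and their sum was lower at P9 (711 to 817 CPM) than at P3 (876 to 1039 CPM). Kdr, the marker that fell, averaged 602 CPM at P9 and 925 CPM at P3, of mean sums of 759 and 978 CPM. The endothelial sum therefore mostly follows this 1 gene. Amacrine markers fell in 3 and rose in 3 of 7 cases, and ganglion cell markers fell in 1 and rose in 5 of 7. Mueller glia markers fell in 1 and rose in 4 of 7, and astrocyte markers fell in 1 and rose in 2 of 5. Microglia markers rose in 3 of 8 cases, and fibroblast markers fell in 1 and rose in 1 of 6. The remaining genes of these lists did not pass. None of the progenitor, rod, lens and pericyte markers was at 0 in all libraries of an age. Their part in the changes of the E2F and pocket protein genes was not tested.

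Among the activators, E2f1 and E2f2 fell while E2f3 rose. E2f1 (ENSMUSG00000027490.17, chromosome 2, 154559400 to 154569892 in GRCm38.p6), the factor most closely tied to S-phase entry, had 4.73, 5.86 and 10.9 CPM as lowest, median and highest value in P9 libraries, against 54.6, 81.6 and 104 CPM in P3 libraries. The highest P9 library lay far under the lowest P3 library. Its log2 fold change was -3.62 ± 0.24 (SE, n = 6 per age; edgeR adjusted p = 4.03e-08), and 0.547% of the genes tested had a lower one. E2f2 (ENSMUSG00000018983.9, chromosome 4, 136172274 to 136196057), an activator of the same class, had 2.71, 3.99 and 5.37 CPM in P9 libraries, against 13.1, 21.0 and 26.97 CPM in P3 libraries. The ages did not overlap, and E2f2 was 5.12-fold lower at P9 (log2 fold change -2.36 ± 0.22, SE; edgeR adjusted p = 7.82e-07).

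E2f3 (ENSMUSG00000016477.18, chromosome 13, 29906575 to 29986064) moved the other way. It had 50.2, 64.2 and 75.7 CPM as lowest, median and highest value in P9 libraries, against 26.6, 32.5 and 35.3 CPM in P3 libraries. Every P9 library exceeded every P3 library, and E2f3 was 2.03-fold higher at P9 (log2 fold change 1.02 ± 0.10, SE; edgeR adjusted p = 1.64e-06). The locus is known to make 2 proteins, E2f3a from the upstream start and the shorter E2f3b from a start inside the gene. The promoter of E2f3a is known to respond to E2F. The deposited counts are per gene, so the forms were not separated here.

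The letters before both starts of E2f3 are printed because they differ in the motif that E2F factors bind. Rbl1 and E2f7, also printed, fell and hold that motif before the start. E2f1, E2f2 and E2f8 fell too, and no match to it was found in the 250 bases before their starts. Sequences are RefSeq's on GRCm38.p6, 5′ to 3′ on the strand of the gene, and end at the base before the annotated start. Capitals mark a match to an E2F motif (TTTCCCGC, TTTGGCGC, TTTCGCGC or TTTGCCGC, here also as the reverse complement GCGGGAAA) or to the cell cycle homology region (CHR; TTTGAA, or TTCAAA as its reverse complement), the element through which the DREAM complex of p107 or p130 acts on G2/M genes. The E2f3 stretches are chr13:29986064-29986313 and chr13:29984392-29984641, both on the minus strand. Rbl1 is chr2:157204535-157204784 on the minus strand and E2f7 chr10:110745189-110745438 on the plus strand.
E2f3 upstream start: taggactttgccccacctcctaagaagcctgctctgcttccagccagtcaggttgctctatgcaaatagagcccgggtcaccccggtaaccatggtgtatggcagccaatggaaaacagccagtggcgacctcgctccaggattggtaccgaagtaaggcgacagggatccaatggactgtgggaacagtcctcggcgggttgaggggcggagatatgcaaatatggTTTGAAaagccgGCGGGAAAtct
E2f3 inner start: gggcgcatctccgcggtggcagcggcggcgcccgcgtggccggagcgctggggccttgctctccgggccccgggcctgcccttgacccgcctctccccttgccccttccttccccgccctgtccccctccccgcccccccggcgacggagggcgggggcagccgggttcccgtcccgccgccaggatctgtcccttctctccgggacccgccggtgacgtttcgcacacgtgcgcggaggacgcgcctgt
Rbl1: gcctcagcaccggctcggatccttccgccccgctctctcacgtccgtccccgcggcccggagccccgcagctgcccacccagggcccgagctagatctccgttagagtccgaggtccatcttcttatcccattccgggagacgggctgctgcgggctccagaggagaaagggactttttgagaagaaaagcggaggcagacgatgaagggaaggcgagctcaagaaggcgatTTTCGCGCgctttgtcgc
E2f7: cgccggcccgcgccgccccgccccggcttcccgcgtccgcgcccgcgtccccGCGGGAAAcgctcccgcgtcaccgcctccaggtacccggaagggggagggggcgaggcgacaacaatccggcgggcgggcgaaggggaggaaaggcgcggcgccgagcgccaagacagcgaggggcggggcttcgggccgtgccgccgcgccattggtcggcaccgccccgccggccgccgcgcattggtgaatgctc

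The upstream E2f3 stretch held an E2F motif 11 bases and a CHR element 23 bases before the start, while neither set of letters was found in the window of the inner start, 1673 bases inside the gene. In Rbl1 the E2F motif began 18 bases before the start, and in E2f7 198 bases before it. E2f2 carried its match after the start, at base 40, in the 30 bases at chr4:136172294-136172323 (plus strand), and E2f8 carried a CHR element in the 30 bases at chr7:48881599-48881628 (minus strand), ahead of a start that lies 477 bases inside the gene.
E2f2: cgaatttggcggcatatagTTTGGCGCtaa
E2f8: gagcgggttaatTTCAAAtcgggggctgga

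Windows of 300 bases, 250 before and 50 after a start, were found for 7 of 10 members, 9 windows in all, and none was matched for E2f4, E2f5 and Rb1. An E2F motif on either strand stood in 4 of these 9 windows (E2f2, E2f3 upstream, E2f7 and Rbl1) and in 744 of 32851 windows of all genes (2.26%). A CHR element stood in 4 of 9 (the inner start of E2f2, the upstream start of E2f3, E2f8 and Rbl2) and in 17.9% of all windows. No E2F match overlapped a CHR match in these windows, and a window was counted once however many matches it held. The E2f1 window, of a start inside the gene, held neither. Matches stood in windows of members that fell and of members that rose. E2f3, which rose, carried both at its upstream start only, and Rbl2, which rose, a CHR element. The counts do not separate the starts of E2f3, and E2f4, E2f5 and Rb1 had no window. Whether matches go with direction was not tested. A match describes letters and is not a measured binding site.

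**Figure D2:**
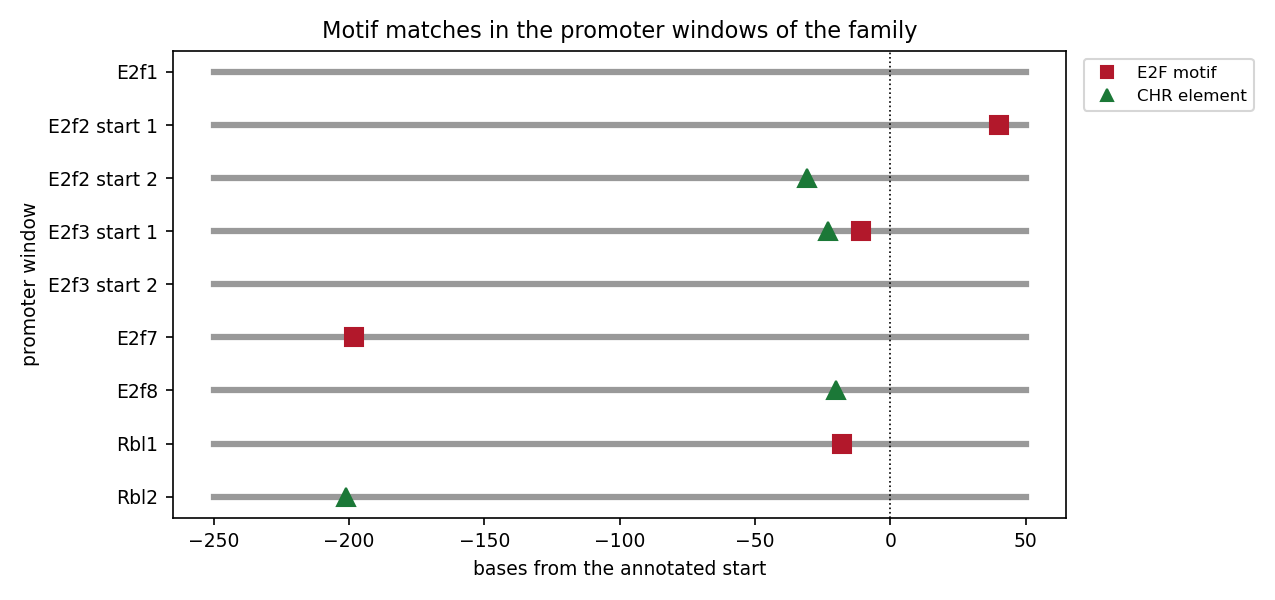
Position of E2F motifs (red squares) and CHR elements (green triangles) in the 9 promoter windows of 7 members; the horizontal axis is the distance in bases from the annotated start, and each grey line is a window of 300 bases. E2F motifs lie in the windows of E2f2, E2f3, E2f7 and Rbl1. The inner E2f3 start and the E2f1 start, which also lies inside its gene, show no match.

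Of the repressors, E2f5 fell and E2f4 did not pass the test. E2f4 (ENSMUSG00000014859.9, chromosome 8, 105297663 to 105305370), the main E2F of the DREAM complex in resting cells, had 59.7, 62.4 and 71.9 CPM as lowest, median and highest value at P9, against 51.0, 60.8 and 67.8 CPM at P3. The ages overlapped, and the log2 fold change was 0.094 with a 95% interval of -0.053 to 0.24 (edgeR adjusted p = 0.315). E2f5 (ENSMUSG00000027552.14, chromosome 3, 14578602 to 14606309), a relative of E2f4 whose loss in mice causes hydrocephalus, had 15.2, 17.4 and 21.7 CPM at P9, against 18.8, 26.0 and 31.8 CPM at P3. P9 replicate 5 lay above P3 replicates 4 and 5, while the other P9 libraries lay under all P3 libraries, and E2f5 was 1.43-fold lower at P9 (log2 fold change -0.52 ± 0.13, SE; edgeR adjusted p = 0.00397).

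Both atypical factors fell steeply. E2f7 (ENSMUSG00000020185.16, chromosome 10, 110745439 to 110787384) had 2.41, 4.18 and 5.96 CPM as lowest, median and highest value in P9 libraries, against 15.8, 23.2 and 33.5 CPM in P3 libraries. E2f8 (ENSMUSG00000046179.17, chromosome 7, 48866429 to 48882073), which forms dimers with E2f7, had 2.77, 3.90 and 5.37 CPM in P9 libraries, against 19.7, 33.8 and 47.9 CPM in P3 libraries. Neither gene overlapped between the ages. E2f7 was 5.86-fold lower at P9 (edgeR adjusted p = 4.58e-07) and E2f8 8.44-fold lower (edgeR adjusted p = 2.45e-07). The lowest P9 libraries still held 80 counts of E2f7 and 90 of E2f8.

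The pocket proteins differed from each other. Rbl1 (ENSMUSG00000027641.13, chromosome 2, 157145893 to 157204534), which encodes p107, the pocket protein of cycling cells, had 12.3, 14.9 and 21.8 CPM as lowest, median and highest value at P9, against 36.8, 53.9 and 67.3 CPM at P3. The ages were apart, and Rbl1 was 3.32-fold lower at P9 (log2 fold change -1.73 ± 0.16, SE; edgeR adjusted p = 6.19e-07). Rbl2 (ENSMUSG00000031666.15, chromosome 8, 91070057 to 91123844), which encodes p130, the pocket protein of quiescent cells, had 58.2, 63.3 and 67.5 CPM at P9, against 49.1, 51.1 and 55.5 CPM at P3. This rise was small and free of overlap, 1.22-fold (log2 fold change 0.29 ± 0.063, SE; edgeR adjusted p = 0.0015). Rb1 (ENSMUSG00000022105.6, chromosome 14, 73192858 to 73325951), which encodes pRB, had 75.04, 90.7 and 101.7 CPM at P9, against 70.4, 84.1 and 93.8 CPM at P3. Its ages overlapped, and the log2 fold change was 0.11 with a 95% interval of -0.063 to 0.29 (edgeR adjusted p = 0.312).

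Whether members changed unequally was tested on the ratio of 2 genes within each library, for 8 pairs, with an exact two-sided permutation test over all assignments of 6 against 6 libraries and adjustment over the 8 pairs. E2f1 over E2f4 fell by 3.72 on the log2 scale at P9, and E2f2 over E2f3 fell by 3.36. E2f3 over E2f4 was higher at P9 by 0.92. Rbl1 over Rb1 fell by 1.83 and Rbl1 over Rbl2 by 2.01, a 4.02-fold shift between the RNAs of p107 and p130. In these 5 pairs the ages did not overlap, and each reached the smallest p that the design allows (exact p = 0.00216, adjusted p = 0.00346). E2f5 over E2f4 fell by 0.60, with overlap of the ages (exact permutation adjusted p = 0.00577). E2f7 over E2f8 was higher at P9 by 0.49, so E2f8 fell further than E2f7 (exact permutation adjusted p = 0.0124). Rbl2 over Rb1 was higher by 0.17 and did not pass (exact permutation adjusted p = 0.143), so the call of Rbl2 beside the missing call of Rb1 is not shown to be a difference between them. Without P3 replicate 2 this pair passed (difference 0.24, exact permutation adjusted p = 0.0303).

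**Figure D3:**
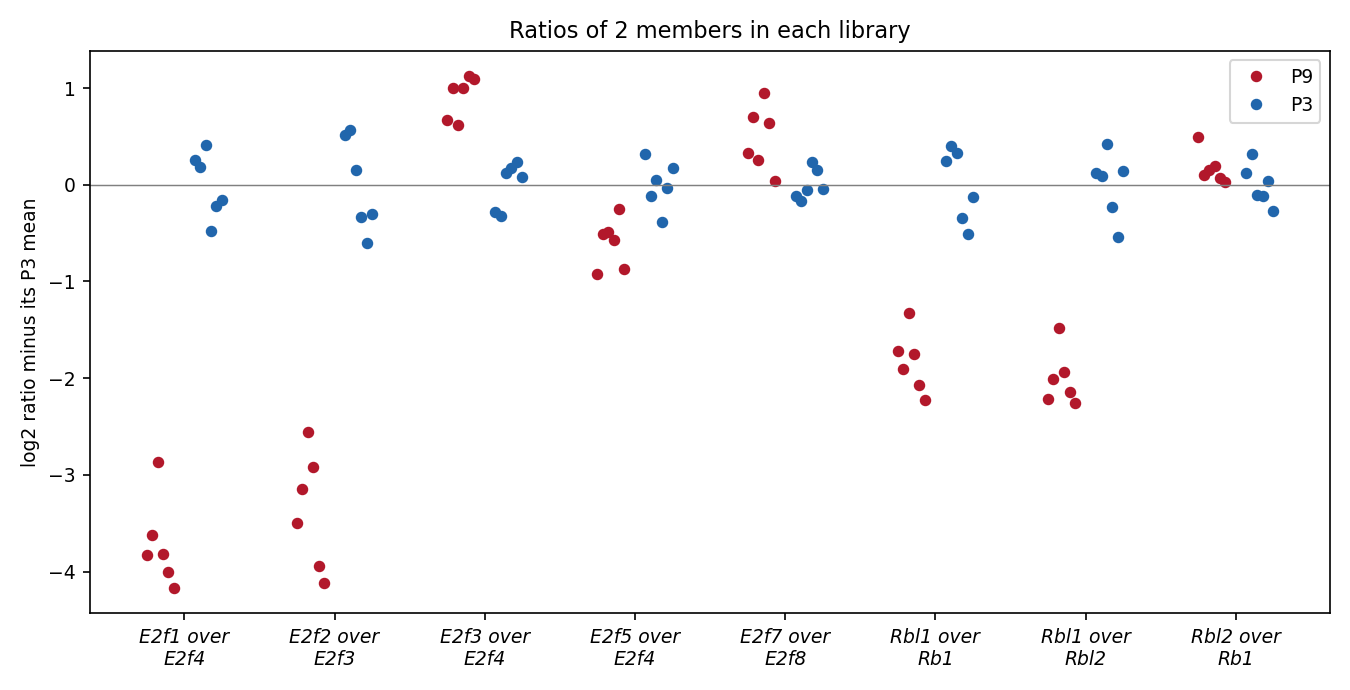
log2 ratio of 2 members in each library, minus the mean of that ratio over the P3 libraries (vertical axis), for 8 pairs (horizontal axis), with P9 libraries in red on the left and P3 libraries in blue on the right; each point is a library. The ages are apart for E2f1 over E2f4, E2f2 over E2f3, E2f3 over E2f4, Rbl1 over Rb1 and Rbl1 over Rbl2, and overlap for the other 3 pairs.

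P3 libraries varied most in the members that fell at P9. The coefficient of variation over P3 libraries was 35.05% for E2f8, 27.9% for E2f1 and 27.8% for E2f7, while it was 9.00% for E2f4, 10.5% for Rb1 and 5.23% for Rbl2. P3 replicates 4 and 5 were each among the 2 lowest P3 libraries for 7 of 10 members, with E2f1 at 54.6 and 56.2 CPM and E2f8 at 21.7 and 19.7 CPM. These 2 libraries also had the highest P3 sums of pericyte markers (1144 and 1285 CPM) and of rod markers (3079 and 2889.6 CPM). P3 replicate 3, the highest P3 library for 4 members, had the lowest pericyte sum of that age (309 CPM) and the highest progenitor sum (2802 CPM). Progenitor sums include the cyclin Ccnd1, at 685 to 1265 CPM in P3 libraries and 56.4 to 139 CPM in P9 libraries. These sums are therefore not free of cell cycle genes. Among P9 libraries, replicate 3 was highest for 4 members and had the lowest rod sum (8160 CPM) and the highest progenitor sum (738 CPM), but its pericyte sum (4591 CPM) was exceeded only by that of replicate 2 (6291 CPM). P9 replicate 6, lowest for 5 members, had the lowest pericyte sum of that age (2778 CPM) and the highest rod sum (16885 CPM), so the pericyte sums ran the other way than among P3 libraries. The progenitor sum of P9 replicate 6 (635 CPM) was not the lowest of that age, which ranged from 572 to 738 CPM. With P3 replicates 4 and 5 both left out, 6 members fell and 2 rose, as with all libraries.

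**Figure D4:**
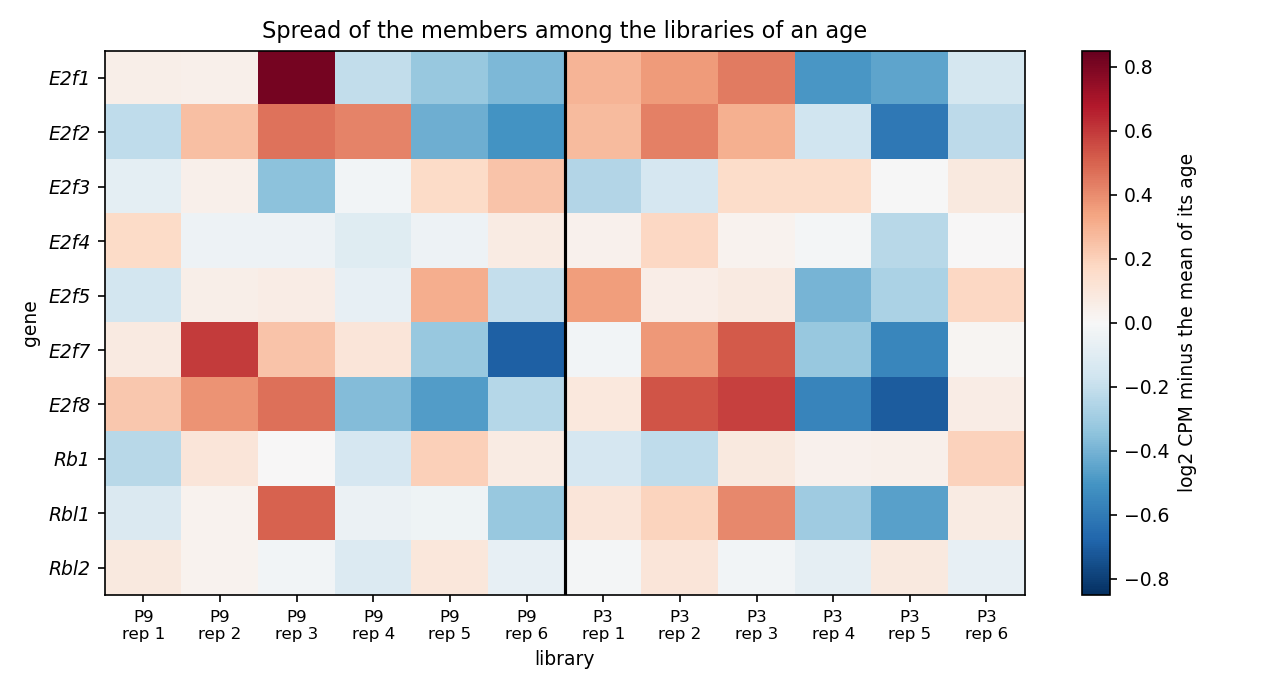
Deviation of log2 CPM from the mean of its own age (colour, red above and blue below) for the 10 genes (rows) in the 6 P9 libraries (left of the line) and the 6 P3 libraries (right). P9 replicate 3 is high for E2f1 and Rbl1, P3 replicates 4 and 5 are low for E2f1, E2f8 and Rbl1, and E2f4, Rb1 and Rbl2 vary little.

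Partners and complexes of the family changed along with it in part. Of 10 genes for DP subunits, the MuvB core, its partners and E2f6, 7 fell, 1 rose and 2 did not pass, where 25.6% of all genes fell and 26.1% rose, with a median log2 fold change of -0.50; the 2 were Lin37 and Lin54 of the MuvB core. Tfdp2, a DP subunit, had 45.4 ± 5.12 CPM at P9 and 139 ± 12.8 CPM at P3 (SD, n = 6 per age), 3.07-fold lower. Foxm1, a factor that joins MuvB at G2/M genes, was 10.04-fold lower and Mybl2, which takes the place of p130 on MuvB in cycling cells, 3.66-fold lower. The member that rose was Lin52, the MuvB subunit that binds the pocket protein (21.6 ± 1.86 CPM at P9 and 15.8 ± 2.81 CPM at P3). E2f6, 1 of the 7 that fell, is a repressor of the Polycomb type that lacks the pocket-binding region. It was named after its values were seen and was 1.61-fold lower at P9 (edgeR adjusted p = 0.000194).

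Cyclins and kinases that phosphorylate pocket proteins fell in 8 of 10 cases, rose in 1 and did not pass in 1, against the same shares of all genes, with a median log2 fold change of -1.06. Ccnd1, the D-type cyclin of retinal progenitors, had 81.1 ± 30.6 CPM at P9 and 929 ± 223 CPM at P3 (SD, n = 6 per age), 11.4-fold lower. Cdk2, the partner of cyclins E and A, was 5.04-fold lower and Cdk6, a partner of D-type cyclins, 1.66-fold lower. Ccnd2 was the gene that did not pass (65.4 ± 27.2 CPM at P9 and 47.6 ± 12.002 CPM at P3). Ccnd3 rose 1.62-fold, with 41.1 ± 4.56 CPM at P9, against 25.5 ± 3.16 CPM at P3. Among 7 inhibitors of these kinases 3 fell, 1 rose and 3 did not pass, so that 4 of 7 were called where 51.8% of all genes were, a share near the background. Their median log2 fold change was 0.32. Cdkn1a, Cdkn2b and Cdkn2d, which did not pass, had positive values (0.32, 1.18 and 0.34), as had Cdkn2a (1.47). Cdkn2c (p18) was 3.69-fold lower, Cdkn1b (p27) 1.90-fold lower and Cdkn1c (p57) 1.52-fold lower. Cdkn2a, which encodes p16 and Arf, rose at a low level, with 1.49 ± 0.951 CPM at P9 and 0.536 ± 0.261 CPM at P3. That call was lost without P9 replicate 2 or 3, when 0 inhibitors rose, and without P3 replicate 6 2 inhibitors rose. Of 9 corepressor genes that act with pocket proteins 6 fell, 0 rose and 3 did not pass (Hdac1, Sin3a and Arid4a), where 25.6% of all genes fell, and the log2 fold changes of all 9 were negative (-1.19 to -0.14). Ezh2, the Polycomb methyltransferase and itself an E2F target, was 2.27-fold lower. Suv39h1, a histone methyltransferase, was 1.41-fold lower and Arid4b, a subunit of the Sin3 complex, 1.27-fold lower. DESeq2 and limma-voom likewise called 0 higher. The called genes named from these and the target lists had edgeR adjusted p between 1.16e-08 (Cenpf, a G2/M gene) and 0.0191 (Cdkn2a).

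All genes on both target lists fell, where 25.6% of all genes tested were called lower at P9. The 30 textbook E2F targets of the G1/S step had a median log2 fold change of -1.56. Mcm2 and Mcm7, subunits of the replicative helicase, were 3.90-fold and 3.57-fold lower at P9, and Rrm1, the large subunit of ribonucleotide reductase, 2.41-fold lower. The 20 G2/M genes that DREAM binds had a median of -2.46, with Cenpf 18.2-fold, Top2a 12.6-fold and Kif11 7.33-fold lower. Mki67, the proliferation marker, had 36.7 ± 14.3 CPM at P9 and 1923 ± 1333 CPM at P3 (SD, n = 6 per age). The summed level of the G1/S targets was 449 to 663 CPM in P9 libraries, against 1209 to 1803 CPM in P3 libraries, and that of the G2/M genes 183 to 368 CPM at P9, against 1546 to 6339 CPM at P3. Mki67 alone made up 1923 of the mean G2/M sum of 3437 CPM at P3, and 36.7 of 276 CPM at P9. Ccne1 and Ccne2 belong to both the cyclin and the G1/S list, and Ccna2 and Cdk1 to the cyclin and the G2/M list. Ccnd1 is also on the progenitor marker list. Progenitor, rod, bipolar, erythroid, endothelial and lens markers moved in the same libraries, and their part in the target lists was not tested.

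**Figure D5:**
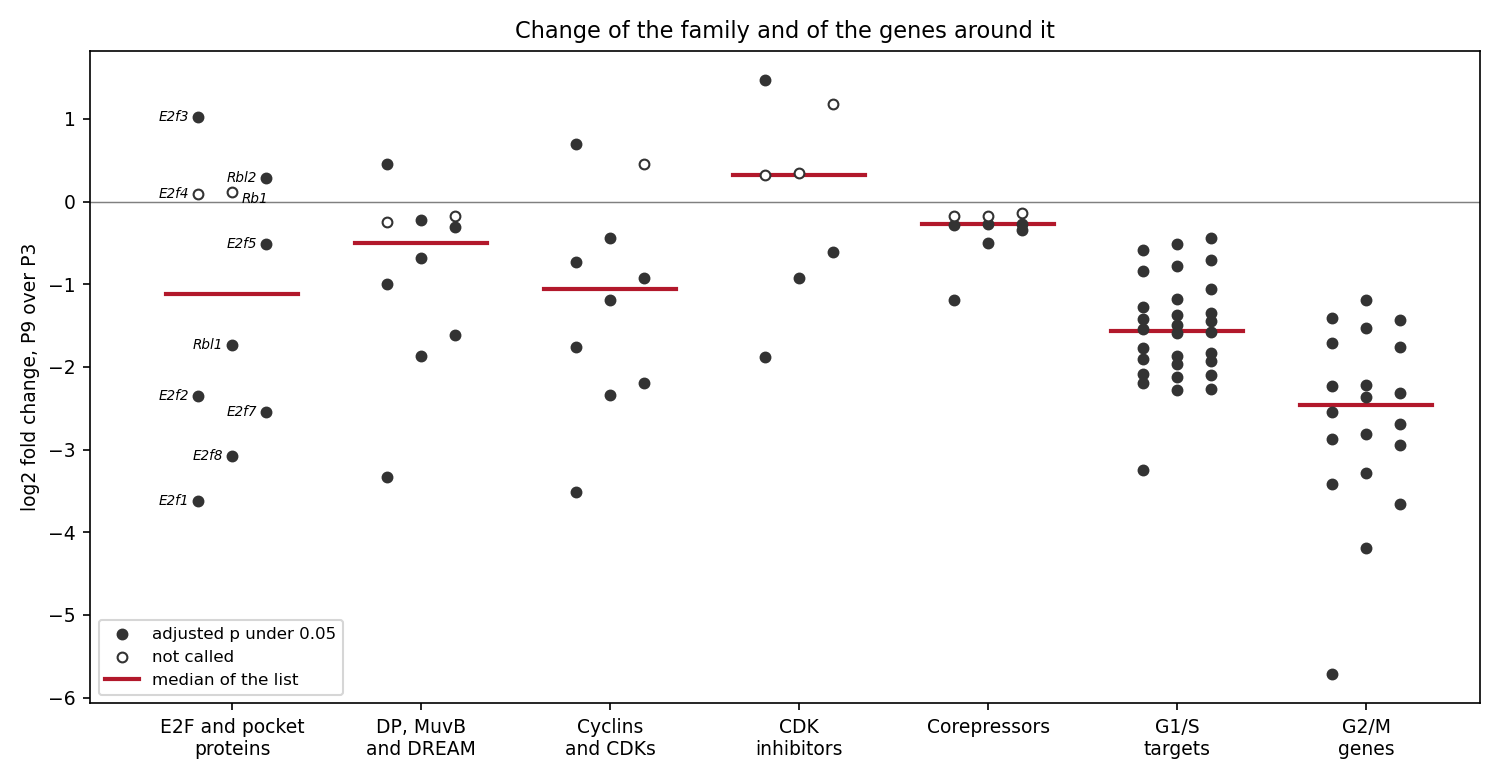
log2 fold change, P9 over P3 (vertical axis), of each gene of the family and of 6 lists around it (horizontal axis); filled points passed an adjusted p under 0.05, open points did not, and red lines are list medians. The family spans from -3.62 for E2f1 to 1.02 for E2f3, and every point of the G1/S and G2/M lists lies below 0.

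The genes whose profiles over the 12 libraries were most like each member's were sought by the root-mean-square difference of log2 CPM, each gene centred on its own mean, among 11628 genes with at least 5 CPM. Nearest to E2f1 were Espl1, the separase of sister chromatids (difference 0.20), Iqgap3 (0.21) and Ccnd1 (0.23), and 5 genes in all lay within 0.25. E2f2 was nearest to Mxd3, a MAX partner, Cdca7 and Recql4, a DNA helicase. Beside E2f7 stood Kif20b, Bub1 and Kif4 and beside E2f8 Uhrf1, Birc5 and Kif23, of which Bub1, Birc5 and Kif23 are on the G2/M list and Uhrf1 on the G1/S list. For Rbl1 the nearest were Smc4, a condensin subunit, Mroh2a and Cdc25b, a phosphatase that activates Cdk1. E2f3 kept company of another kind, Tmem230, Rhot1, a mitochondrial GTPase, and Tbc1d30 (differences of 0.11), with 552 genes within 0.25. E2f5 was nearest to Rad52, Hectd2 and Dhx57, with 1371 genes within 0.25. E2f4, Rb1 and Rbl2 had 4038, 3584 and 3812 genes within that distance, so their nearest genes (Mier2, Dcaf11 and Unc50 for E2f4, Mmgt1, Epha4 and Mfsd14b for Rb1, and Dnajc16, Repin1 and Cndp2 for Rbl2) stand among many others that changed as little.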

How the data were processed

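The 6 P9 and 6 P3 retina libraries were grouped by the age in the labels. Files hold expected counts per gene (per the file headers), not scaled to depth, deposited by the authors as a table per library; 15.9% are not whole. The tools named per the submitters' processing notes are STAR, RSEM, FastQC, Trim Galore and limma, with the build mm10; their versions and roles were not given in the sources used here. Replicates are numbered in accession order. The library names of P9 replicates 5 and 6 are crossed between the labels and their files; values here follow the sample record that holds the file, and both libraries are P9.

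Expected counts were rounded, filtered with filterByExpr, scaled by TMM and tested with edgeR 4.0.16 (R 4.3.3; quasi-likelihood, Benjamini-Hochberg over 18638 genes, threshold 0.05). SE is the log2 fold change divided by the root of F. For ratios, a prior count of 2 was added before log2. The procedure was tested on simulated data. Alternatives used DESeq2 1.42.0, limma 3.58.1, other scalings and filters, and left-out libraries. Levels were not compared between genes because transcript lengths were not used here. Coordinates are RefSeq's, by symbol. The progenitor list held 1 further gene, which is not reported here and was left out of its count and sums, so these do not describe the whole list.

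The members, lists, pairs and tests were chosen with earlier results of these data known. Named list genes are the 3 called with the smallest adjusted p and any called against the direction of most of the list; the 3 genes of most similar profile per member had to reach 5 CPM and carry no model name.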

Additional observations from a re-analysis of the deposited data

Results flagged for a closer look

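In 2 of the 20 sets of 6 libraries (10 members, each age), the highest library stood farther from the others than Dixon's 95% limit for 6 samples allows, and chance alone flags about 1 in 20 such sets. Both were P9 replicate 3. It had 10.9 CPM of E2f1, a gap of 0.728 of the P9 range, and 21.8 CPM of Rbl1, a gap of 0.642, against a limit of 0.625. In the same library the rod marker sum was the lowest of the age (8160 CPM). The progenitor sum, which includes Ccnd1, was the highest (738 CPM). The part of these markers was not tested. Without this library E2f1 and Rbl1 were still called lower at P9 (E2f1 log2 fold change -3.83, Rbl1 -1.85; edgeR).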

How the results depend on the processing

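No paired analysis was possible because no replicate number in the labels is shared by the ages. Each member kept its direction and its side of the threshold under all 24 alternatives: 6 fell and 2 rose under upper-quartile, median-ratio or total-count scaling, DESeq2, limma-voom, a robust fit, no filter or a filter at 10 CPM, a threshold of 0.01, summed rows, each library left out in turn, P9 replicates 5 and 6 (whose names are crossed) left out together, and P3 replicates 4 and 5 (low for most members) left out together. Over these settings 3584 to 5062 genes in all were called lower and 3479 to 5113 higher. E2f1 stayed between -3.83 and -3.45 and E2f3 between 0.91 and 1.08. With single libraries left out, the difference of Rbl2 over Rb1 ranged from 0.11 to 0.24, the inhibitors that rose numbered 0 to 2 and the cyclins and kinases that rose 1 to 2 (2 without P9 replicate 6). The other ratios kept their calls, and the other list counts stayed within 1.5 times, under the settings run for them. The widest SEs were those of E2f8 (0.25), E2f1 (0.24), E2f7 (0.23) and E2f2 (0.22). E2f7 rested on as few as 80 counts at P9, and what set the width of the errors was not tested.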

Other observations

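Promoter windows of the lists around the family differed in the letters they held. An E2F motif stood in 10 of 26 windows of the G1/S targets (38.5%) and 1 of 17 of the G2/M genes (5.88%), against 2.26% of all 32851 windows. It stood in 2 of 7 windows of the cyclins and kinases (28.6%), 3 of 11 of the partners (27.3%), 2 of 8 of the corepressors (25.0%) and 1 of 9 of the inhibitors (11.1%). A CHR element stood in 14 of 17 windows of the G2/M genes (82.4%) and 2 of 26 of the G1/S targets (7.69%), against 17.9% of all windows. In the other lists it stood in 3 of 11 windows of the partners (27.3%), 1 of 7 of the cyclins and kinases (14.3%), 1 of 8 of the corepressors (12.5%) and 1 of 9 of the inhibitors (11.1%). A gene can have several windows, and the shares are descriptions without a test.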
